A study of Mus musculus with 10 samples.

Results

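The genes described here are 10 members of the Bcl2 family, the group of proteins that decides whether the outer membrane of the mitochondrion stays sealed or is opened during apoptosis. They are Bcl2, Bcl2l1, Mcl1, Bax, Bak1, Bid, Bad, Bcl2l11, Bbc3 and Bik, and every probe set whose only gene symbol is one of these names was taken. The array table holds 22 such probe sets, from 9 of the 10 genes, among 25958 probe sets of 12366 named genes. Bax had no probe set in the table used here.

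Liver RNA from 10 mice aged 28 days, fasted for 5 hours, was measured with 1 Affymetrix array for each animal. The control group held 5 mice, whose genotype is not stated in the labels. The mutant group held 5 mice with DicerloxP/loxP;Afp-Cre+, in which a Cre recombinase under Afp control deletes floxed Dicer1, the gene of the enzyme that makes mature microRNAs. All mice are described as of mixed strain, and litter and batch are not given. Afp is active in the fetal hepatocyte lineage, so that blood and connective tissue cells of these livers are not its usual targets.

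Members of the family act on each other by binding. Guardian proteins such as BCL2, BCL-XL (from Bcl2l1) and MCL1 hold the pore-forming effectors BAX and BAK in check. BH3-only proteins, here BID, BAD, BIM (from Bcl2l11), PUMA (from Bbc3) and BIK, report stress and either occupy the guardians or activate the effectors. In the liver, MCL1 and BCL-XL keep hepatocytes alive, and BID links death receptors at the cell surface to the mitochondrion. These proteins are controlled to a large part after transcription, by cleavage, phosphorylation and turnover, which arrays of RNA do not show.

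Several members are described in the literature as targets of microRNAs, and because the mutation removes the enzyme that makes them, the mature sequences of 10 such microRNAs are shown. They are from RefSeq on assembly GRCm38.p6, written 5′ to 3′, with the seed, bases 2 to 8, in capitals. MicroRNAs were not measured on these arrays and no target site was searched for. The miR-29 family, described for Mcl1, shares 1 seed:
mmu-miR-29a-3p: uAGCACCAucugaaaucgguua
mmu-miR-29b-3p: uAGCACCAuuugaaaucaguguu
mmu-miR-29c-3p: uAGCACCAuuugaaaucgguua
The miR-125 family, described for Bak1, shares another:
mmu-miR-125a-5p: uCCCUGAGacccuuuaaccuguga
mmu-miR-125b-5p: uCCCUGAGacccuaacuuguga
The miR-15 and miR-16 family is described for Bcl2:
mmu-miR-15a-5p: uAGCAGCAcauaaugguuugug
mmu-miR-16-5p: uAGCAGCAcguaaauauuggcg
A member of the miR-17 cluster is described for Bcl2l11:
mmu-miR-17-5p: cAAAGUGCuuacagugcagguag
The miR-221 and miR-222 pair is described for Bbc3, and miR-221 also for Bmf, a further BH3-only gene:
mmu-miR-221-3p: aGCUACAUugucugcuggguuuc
mmu-miR-222-3p: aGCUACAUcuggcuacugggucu
The capitals are identical within each family, giving 5 seeds among the 10 sequences, and bases outside the seed differ.

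The arrays agreed closely, with pairwise correlations from 0.970 to 0.993 and array medians from 6.41 to 6.68. Dicer1 was lower in all 5 mutants, by 2.31 (SE 0.10, adjusted p = 4.1e-05) on probe set 1427941_at and by 1.03 (SE 0.07, adjusted p = 0.000678) on 1460571_at. Albumin (Alb), a defining hepatocyte transcript, was bright in every array, with control and mutant means of 16.20 ± 0.11 and 16.24 ± 0.12 (SD, n = 5 in each group). These values lie near 16.65, the highest on any array, and do not measure the share of hepatocytes. Of 10 listed hepatocyte markers 0 were called by limma (2 had an unadjusted p under 0.05, Pck1 at 0.46 and Apoa1 at -0.09). For some genes that follow, Bid, Bbc3 and Bad among them, but not for Bak1, mutant replicate 5 stands apart from the other mutants. Its Dicer1 values of 5.84 and 6.98 lay within the range of the other mutants. Without it, 5309 instead of 3422 probe sets were called among the 25958.

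Values are on a log2 scale, differences are mutant minus control, and a probe set was called when its limma p, adjusted over all 25958 probe sets, was under 0.05. Across all probe sets, 5.80% were called higher and 7.39% lower in mutants. Of the 22 Bcl2 family probe sets, 4 were called higher, 1 of Bak1 and 3 of the 6 of Mcl1, and 0 were called lower. Beside that 0, 3 probe sets, of Bid, Bbc3 and Bad, had lower mutant means with an unadjusted p under 0.05. The same held for 4152 of all 25958 probe sets. Higher mutant means with such a p were seen for 6 of the 22 and for 3289 of all probe sets. Taking the brightest probe set of each gene, 1 of 9 genes was called, Bak1, where 16.8% of all genes were. The median difference was 0.11 over the 22 probe sets and -0.01 over all probe sets. The Mcl1 probe sets share a transcript and are not independent of each other.

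**Figure D1:**
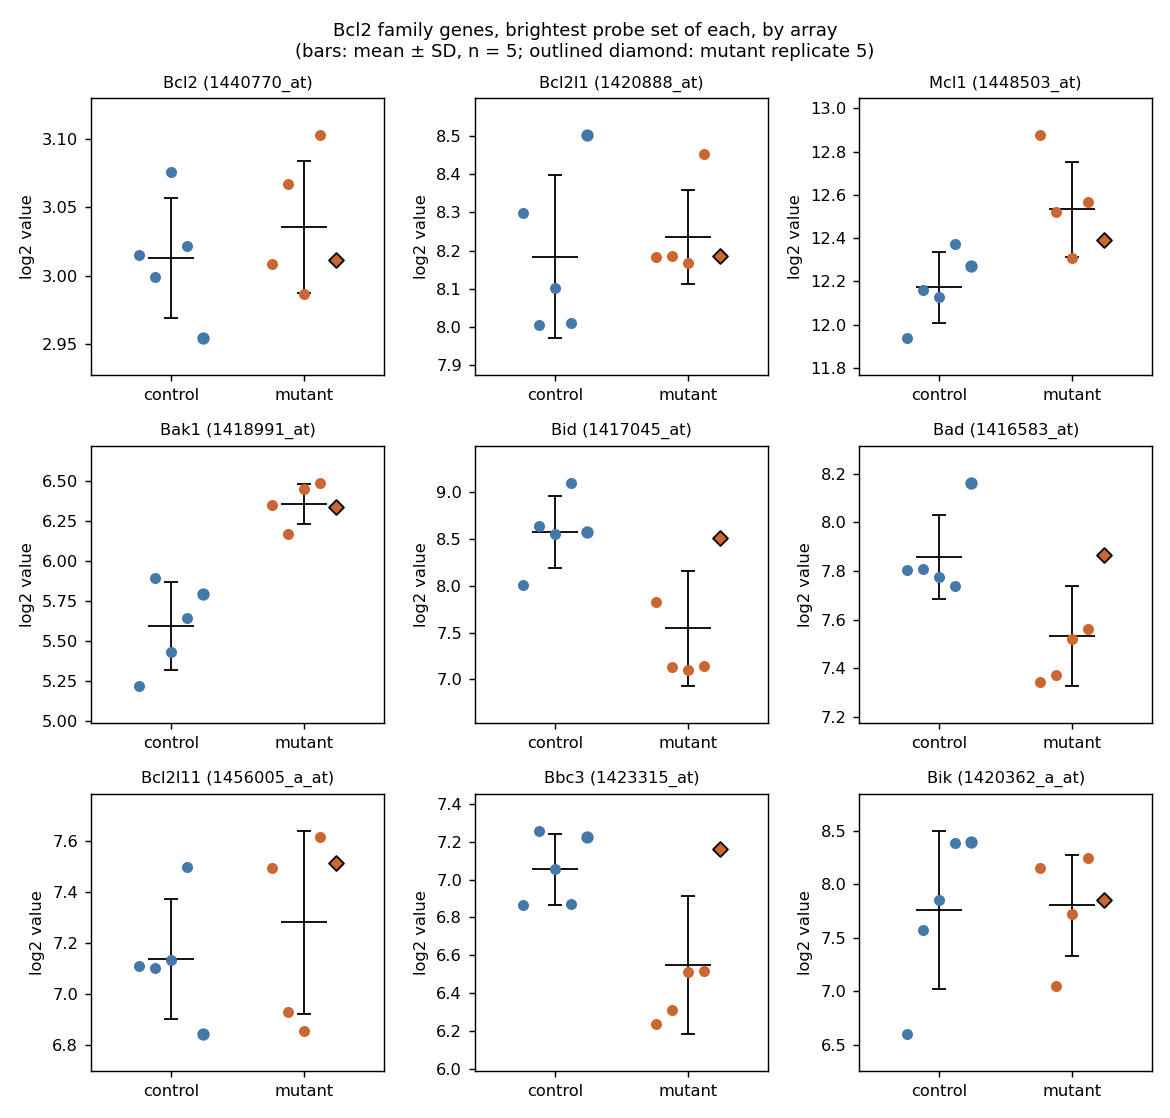
Log2 value of the brightest probe set of each of the 9 measured genes on each array, with controls and mutants on the x axis, horizontal lines for means and bars for the SD (n = 5); each panel has its own y axis, and none starts at 0. The 5 Bak1 mutant points lie above all control points, and the outlined diamond, mutant replicate 5, lies among the controls for Bid, Bad and Bbc3.

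Among the guardians, Mcl1 rose on 3 of its 6 probe sets. MCL1 is a short-lived protein whose loss alone is enough to start apoptosis in hepatocytes. On probe set 1456381_x_at the controls stood at 10.45, 10.62, 10.75, 10.76 and 10.70, and the mutants at 11.31, 11.15, 10.98, 11.07 and 10.89. All 5 mutants were above all 5 controls, and the rise was 0.43 (SE 0.09, 95% interval 0.22 to 0.63, adjusted p = 0.0194), or 1.34-fold. On 1456243_x_at the controls stood at 9.93, 10.03, 10.13, 10.05 and 10.03, and the mutants at 10.87, 10.83, 10.33, 10.50 and 10.17. The groups were again separate, with a rise of 0.51 (SE 0.13, adjusted p = 0.0370). On 1416880_at the controls stood at 10.74, 10.78, 10.96, 10.96 and 10.88, and the mutants at 11.51, 11.46, 11.21, 11.27 and 10.94. Here mutant replicate 5 lay inside the control range, and the rise was 0.41 (SE 0.11, adjusted p = 0.0348).

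The other 3 Mcl1 probe sets had higher mutant means but were not called. The brightest, 1448503_at, had a control mean of 12.17 ± 0.16 and a mutant mean of 12.53 ± 0.22 (SD, n = 5 in each group). It differed by 0.36 (SE 0.12, 95% interval 0.10 to 0.62, adjusted p = 0.0722). Probe set 1437527_x_at had the largest Mcl1 difference, 0.62 (SE 0.18, adjusted p = 0.0526), with controls from 9.53 to 10.002 and mutants from 10.004 to 11.03. Probe set 1416881_at had the smallest, 0.19 (SE 0.09, adjusted p = 0.206), and 3 of its mutants exceeded all controls. Among the alternatives, 1448503_at was called in 2 of 19, 1437527_x_at in 6 of 17 and 1416881_at in 0 of 17. So the direction was shared by all 6 probe sets, while the size ran from 0.19 to 0.62. With the mean of the 6 as 1 value in a fit over genes, Mcl1 differed by 0.42 (adjusted p = 0.0312). A name ending in x_at marks a probe set in which some probes can also match other transcripts, which applies to 2 of the 3 called sets.

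The Mcl1 calls differ in how they depend on single arrays. The call on 1456381_x_at was kept without any 1 of the 10 arrays, with adjusted p from 0.0069 to 0.0468. That on 1456243_x_at was kept only without mutant replicate 3 or 5 (0.0652 to 0.0768 without any 1 of the others). That on 1416880_at was kept only without mutant replicate 5 (0.0587 to 0.0766 without any 1 of the others). Both were also lost when the array median was subtracted, at 0.0593 and 0.0629. Mutant replicate 5 was the lowest mutant on 4 of the 6 Mcl1 probe sets, and mutant replicate 1 the highest on all 6.

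Bcl2l1, which encodes BCL-XL, was not called. On 1420888_at the controls stood at 8.30, 8.005, 8.10, 8.01 and 8.50, and the mutants at 8.18, 8.19, 8.17, 8.45 and 8.19. The mutants lay within the control range, and the difference was 0.05 (SE 0.11, 95% interval -0.19 to 0.29, adjusted p = 0.833). The dimmer 1420887_a_at varied from 5.06 to 6.36 among controls and from 5.05 to 5.84 among mutants, a difference of -0.15 with an interval of -0.77 to 0.46 (adjusted p = 0.796). The interval of the first probe set excludes a change of the size seen for Bak1, that of the second does not exclude a fall of that size.

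Bcl2, the founding member of the family, was near the bottom of the signal range in every liver. Its probe sets averaged 3.01 and 2.58 in controls and 3.04 and 2.71 in mutants, all below 3.60, the 25th percentile of all values, which serves here as a floor and is not a measured detection limit. The differences were 0.02 (SE 0.04, adjusted p = 0.783) and 0.13 (SE 0.09, adjusted p = 0.385). At this signal a change of the transcript cannot be told from background.

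Of the effectors, Bak1 had the smallest p of all members. BAK sits in the outer mitochondrial membrane and forms pores once it is activated. On its only probe set, 1418991_at, the controls stood at 5.22, 5.89, 5.43, 5.65 and 5.79, and the mutants at 6.35, 6.17, 6.45, 6.49 and 6.34. Every mutant was above every control, and mutant replicate 5 was level with the others. Bak1 rose by 0.76 (SE 0.13, 95% interval 0.47 to 1.05, adjusted p = 0.0101), or 1.69-fold. The call was kept without any 1 of the 10 arrays (0.0069 to 0.0293) and in all 18 alternatives in which the probe set was tested. Since Bax was not measured here, the balance of the effectors is not given.

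Groups that did not overlap, with the mutants higher, were seen for 4 of the 22 probe sets, against 5.00% of all probe sets. These were Bak1 and the Mcl1 sets 1456381_x_at, 1456243_x_at and 1437527_x_at, the last of which was not called. No member probe set had all mutants below all controls, a pattern seen for 1381 of all 25958 probe sets.

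**Figure D2:**
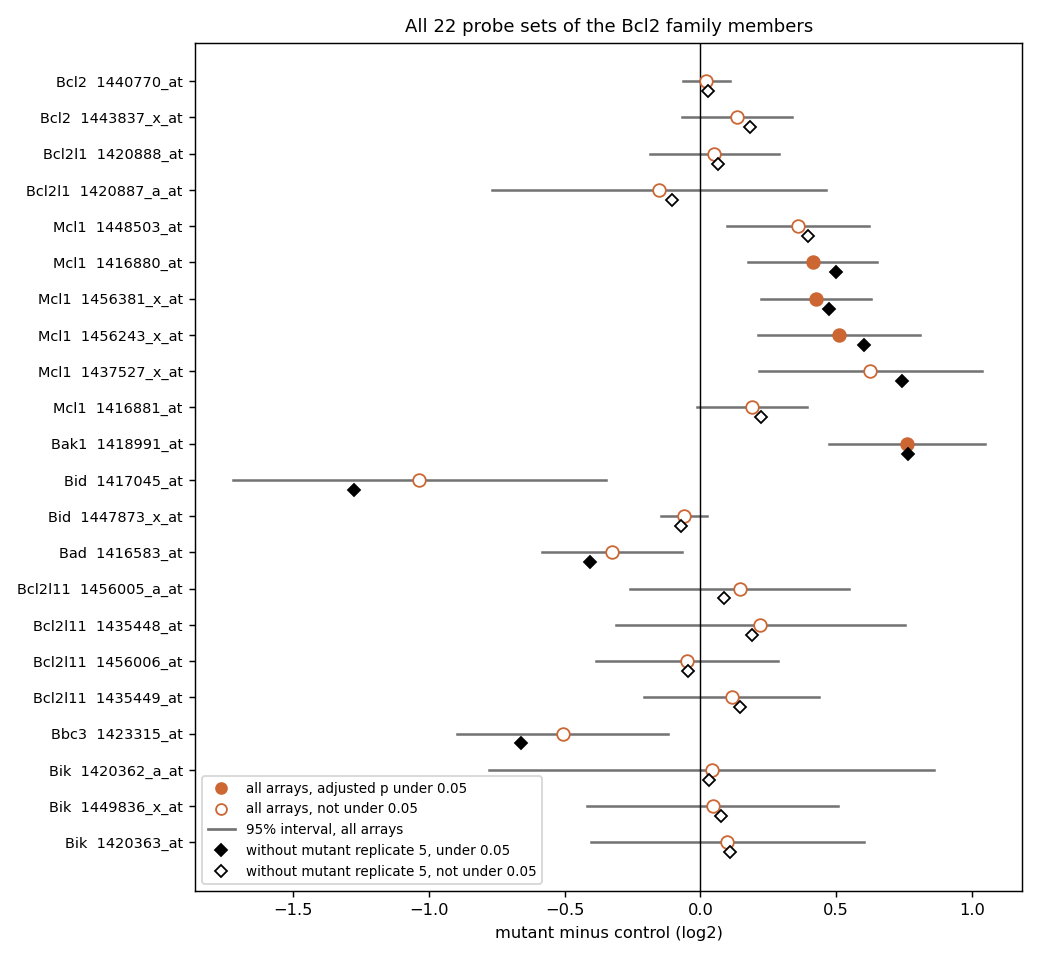
Mutant minus control difference on the log2 scale (x axis) for all 22 probe sets, with circles for all 10 arrays, lines for their 95% intervals and diamonds for the fit without mutant replicate 5; filled symbols have an adjusted p under 0.05. Filled circles are seen for Bak1 and for 3 of the 6 Mcl1 probe sets, and 8 diamonds are filled, 3 of them on the left of 0.

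Of the 5 BH3-only genes, Bid, Bbc3 and Bad had lower mutant means with an unadjusted p under 0.05, Bcl2l11 and Bik did not, and 0 of the 5 were called by limma on the deposited values of all arrays. Over all genes, by their brightest probe sets, 2467 of 12366 had lower mutant means with such a p, and 1861 had higher ones. Bid, whose protein is cleaved below death receptors and carries the signal to mitochondria, had the largest difference of any member. On 1417045_at the controls stood at 8.01, 8.64, 8.56, 9.10 and 8.57, and the mutants at 7.83, 7.13, 7.10, 7.15 and 8.51. Mutant replicates 1 to 4 were below all controls, and mutant replicate 5 was at the level of the controls. The difference was -1.03 (SE 0.30, 95% interval -1.72 to -0.35, adjusted p = 0.0540). Bid lies close to the threshold and was called in 8 of 19 alternatives, only 1 of which left out an array. The others kept all 10 arrays, with an adjusted p of 0.0300 after subtraction of the array median and 0.0490 with trend and robust options. Among them, the fit with array weights gave mutant replicate 5 the lowest weight, 0.529. The other Bid probe set, 1447873_x_at, lay between 2.91 and 3.09 on all arrays, below the floor, and differed by -0.06 (adjusted p = 0.349).

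Bbc3, which encodes PUMA, a potent BH3-only protein induced by p53, showed the same arrangement of arrays on 1423315_at. The controls stood at 6.86, 7.26, 7.06, 6.87 and 7.22, and the mutants at 6.24, 6.31, 6.51, 6.52 and 7.16. Mutant replicates 1 to 4 were below all controls, and mutant replicate 5 was inside their range. The difference was -0.51 (SE 0.17, 95% interval -0.90 to -0.12, adjusted p = 0.0836), and it was called in 4 of 19 alternatives.

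Bad, whose protein is held inactive in the cytosol by phosphorylation and 14-3-3 proteins, stood on 1416583_at at 7.81, 7.81, 7.78, 7.74 and 8.16 in controls. In the mutants it stood at 7.35, 7.37, 7.52, 7.56 and 7.86. The 4 lower mutants were again replicates 1 to 4, and mutant replicate 5 lay inside the control range. The difference was -0.33 (SE 0.11, 95% interval -0.58 to -0.07, adjusted p = 0.0946), and it was called in 3 of 19 alternatives.

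Bcl2l11, the gene of BIM, has 4 probe sets, of which 2 were well above the floor. On 1456005_a_at the controls stood at 7.11, 7.10, 7.14, 7.498 and 6.84, and the mutants at 7.49, 6.93, 6.86, 7.62 and 7.51. The groups overlapped, with a difference of 0.14 (SE 0.18, 95% interval -0.26 to 0.55, adjusted p = 0.677). On 1435448_at the difference was 0.22 (SE 0.24, interval -0.31 to 0.75, adjusted p = 0.618), and on both sets control replicate 5 was the lowest control and mutant replicate 4 the highest mutant. The dim sets 1456006_at and 1435449_at, below the floor on 8 and 9 of 10 arrays, differed by -0.05 and 0.12.

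Bik, a BH3-only protein of the endoplasmic reticulum, was not called on any of its 3 probe sets. On 1420362_a_at the controls stood at 6.60, 7.58, 7.85, 8.39 and 8.39, and the mutants at 8.15, 7.05, 7.72, 8.24 and 7.85. The difference was 0.04 (SE 0.36, adjusted p = 0.983). The controls were the more variable group on all 3 sets, with an SD of 0.74 against 0.47 on this one, 0.45 against 0.20 on 1449836_x_at and 0.50 against 0.20 on 1420363_at. Control replicate 1 was the lowest array on all 3. The interval of -0.78 to 0.86 on the brightest set leaves room for a change as large as that of Bak1 in either direction.

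Bid, Bbc3 and Bad were each called when mutant replicate 5 was left out. Without it, Bid fell by 1.28 (SE 0.23, adjusted p = 0.00622), Bbc3 fell by 0.66 (SE 0.11, adjusted p = 0.00409) and Bad fell by 0.41 (SE 0.10, adjusted p = 0.0185). In that fit 5 member probe sets were called higher, Bak1 and 4 of Mcl1, against 8.15% of all probe sets, and 3 were called lower, against 12.3%. Without any 1 of the other 9 arrays, 2 or 3 member probe sets were called higher and 0 lower. The array was singled out by its values and not by its labels, and leaving out the mutant nearest the controls enlarges a difference by construction. Bid, Bbc3 and Bad were not called without any 1 of the other 9 arrays, with adjusted p from 0.0535 to 0.120, from 0.100 to 0.172 and from 0.119 to 0.190.

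**Figure D3:**
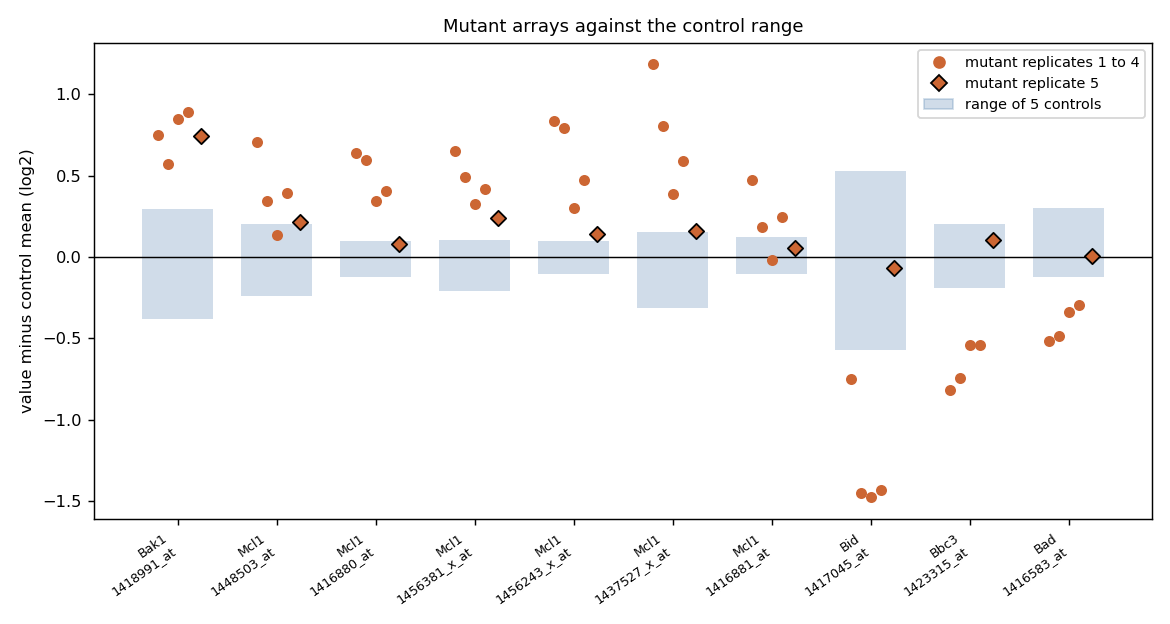
Each mutant array minus the control mean (y axis, log2) for the probe sets of Bak1, Mcl1, Bid, Bbc3 and Bad, with shaded boxes for the range of the 5 controls and the outlined diamond for mutant replicate 5. For Bak1 the diamond stands 0.74 above the control mean, among the other mutants, while for Bid, Bbc3 and Bad it lies within the shaded range and the other 4 mutants lie below it.

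The distance of mutant replicate 5 from the control mean, as a share of the mean distance of the other 4 mutants, was 0.97 for Bak1. For the 6 Mcl1 probe sets this share ran from 0.16 on 1416880_at to 0.55 on 1448503_at. It was 0.05 for Bid, -0.01 for Bad and -0.16 for Bbc3, where the array lay at or on the other side of the control mean. For Dicer1 it was 0.95 on 1427941_at and 1.09 on 1460571_at. The difference between these shares was not tested.

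**Figure D4:**
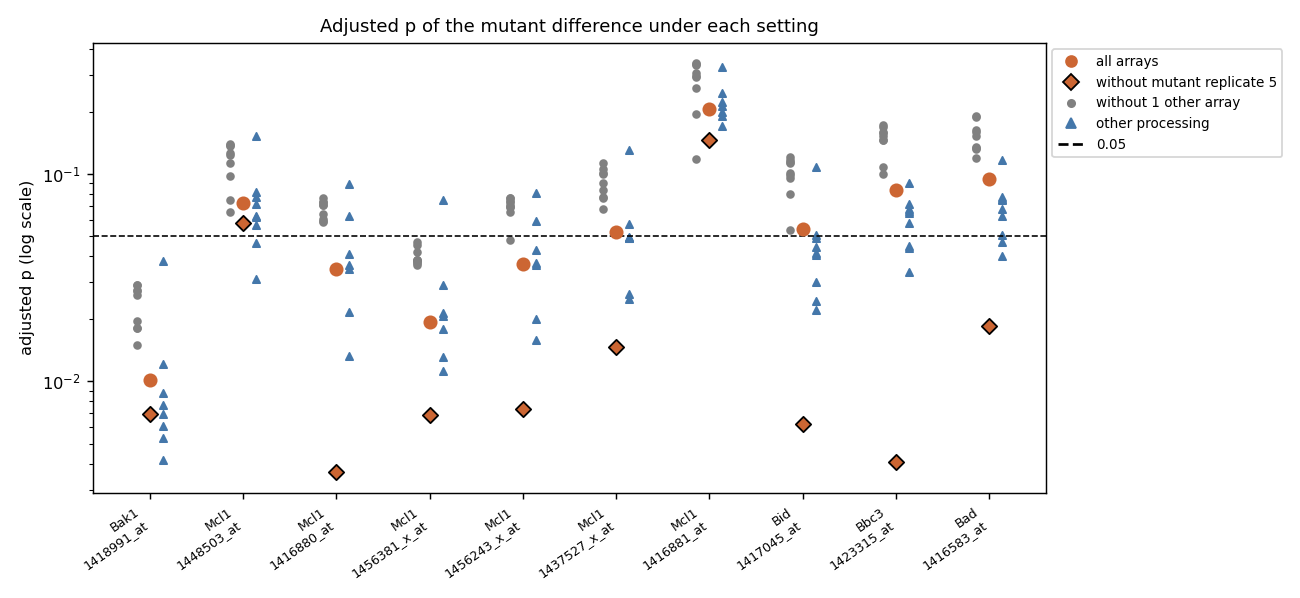
Adjusted p of the mutant difference (y axis, log scale) for the same probe sets, with large circles for all arrays, outlined diamonds without mutant replicate 5, small circles without 1 other array and triangles for other processing; the dashed line is 0.05. All Bak1 points lie under the line, and for Bid, Bbc3 and Bad the small circles lie above it while the diamonds and, in part, the triangles lie below it.

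Beyond the 10 members, 11 of 20 listed further genes of the family or bound to it by name were measured. Of these, 1 rose, 3 fell and 7 were not called, with a median difference of -0.19. Over all genes, by their brightest probe sets, 16.8% were called in either direction and 7.29% called higher, and the counts of each list below are to be read beside these shares. They hold for the fit of all arrays. Counts without mutant replicate 5 are to be read beside the larger shares of that fit, 8.15% of all probe sets called higher and 12.3% lower. Those are shares of probe sets, while the lists count genes, and the share of genes is not given for that fit. With all arrays, the share called higher was larger over genes, 7.29%, than over probe sets, 5.80%. Bmf, a BH3-only protein released from the motor complexes of the cytoskeleton, stood at 5.68, 6.06, 6.58, 6.33 and 6.55 in controls and at 6.83, 8.57, 7.24, 7.75 and 7.95 in mutants. All mutants were above all controls, mutant replicate 5 included, and Bmf rose by 1.43 (SE 0.32, adjusted p = 0.0230), or 2.69-fold. Its adjusted p was no longer under 0.05 when control replicate 1 or mutant replicate 4 was absent, reaching 0.0559.

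Bcl2l2, the gene of the guardian BCL-W and a described target of miR-122, fell by 0.35 (SE 0.10, adjusted p = 0.0473) on 1423572_at, and its other probe set differed by -0.05. That call was kept only without mutant replicate 5 (0.0646 to 0.100 without any 1 of the other arrays). Bnip1, a membrane fusion protein that binds BCL2, fell by 0.85 (SE 0.19, adjusted p = 0.0234), a call that needed 5 of the arrays, control replicates 2 and 5 and mutant replicates 1, 3 and 4 (0.0513 to 0.0585 in the absence of any 1 of them). Bnip2 fell by 0.38 (SE 0.08, adjusted p = 0.0177) and its 4 probe sets ran from -1.12 to -0.38. Its call was kept without any 1 of the arrays. Without mutant replicate 4, 1 gene of this list was called. For Bcl2l2 and Bnip1, mutant replicate 5 was the highest mutant and the groups overlapped.

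Downstream of the mitochondrion, of 16 measured genes of the apoptosome, the caspases and factors released by mitochondria, 1 rose and 0 fell, with a median of 0.05, and 5 had an unadjusted p under 0.05. Over all 12366 genes, 2467 had lower and 1861 higher mutant means with such a p. The 1 listed gene that rose was Dffa, which encodes the inhibitor and chaperone of the apoptotic DNase, at 0.42 (SE 0.06, adjusted p = 0.00707), although a further Dffa probe set differed by -0.06. Without mutant replicate 5, 3 rose and 1 fell. Of 8 inhibitor of apoptosis genes 0 were called by limma and 0 had an unadjusted p under 0.05. The smallest p were those of Xiap, the inhibitor of active caspases, at 0.19 (SE 0.09, adjusted p = 0.187), and Naip2 at 0.395 (SE 0.20, adjusted p = 0.229). The 7 probe sets of Xiap ran from -0.23 to 0.19.

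Of 11 measured death receptor and necroptosis genes, 1 rose and 1 fell, with a median of 0.19. Cyld, a deubiquitinase that acts below TNF receptors, rose by 0.45 (SE 0.09, adjusted p = 0.0175), with 0.07 at the lowest of its 3 probe sets. Tradd, the adaptor of TNF receptor 1, fell by 0.56 (SE 0.16, adjusted p = 0.0473), on probe sets from -0.64 to 0.00, and the call was kept only without mutant replicate 5 (0.0691 to 0.104 otherwise). Without any 1 array, the number called in this list was 1 apart from mutant replicate 5, without which it was 4.

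Of 14 genes of the outer mitochondrial membrane, its partners and mitochondrial fission, 0 rose and 2 fell, with a median of -0.07. Ppif, the cyclophilin of the permeability transition, fell by 1.004 (SE 0.17, adjusted p = 0.0104) and kept its call without any 1 of the arrays. Tspo, the translocator protein of the outer membrane, fell by 0.70 (SE 0.16, adjusted p = 0.0256). That call held in the absence of control replicate 4 or mutant replicate 2, 4 or 5, and not of any 1 of the others (0.0505 to 0.0587). Without mutant replicate 5, 0 of the 14 rose and 4 fell.

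Of 28 upstream regulators, 3 rose and 1 fell, with a median of 0.05. Myc rose by 1.86 (SE 0.46, adjusted p = 0.0323), Foxo3, a transcription factor that can induce Bcl2l11 and Bbc3, rose by 0.75 (SE 0.20, adjusted p = 0.0416), and Ywhaz, a 14-3-3 protein of the kind that binds phosphorylated BAD, rose by 0.55 (SE 0.15, adjusted p = 0.0465). Akt1, a kinase that phosphorylates BAD, fell by 0.35 (SE 0.09, adjusted p = 0.0412). Each of these calls was kept without mutant replicate 5 and at most 1 other array, mutant replicate 3 for Myc, control replicate 1 for Foxo3 and control replicate 2 for Akt1. The adjusted p without any 1 of the remaining arrays ran from 0.0519 to 0.102 over the 4 genes. The 7 probe sets of Ywhaz ran from 0.40 to 0.69 and 6 were called with all arrays. On the brightest, mutant replicate 5 lay inside the control range. Of the 28, 6 rose and 3 fell without mutant replicate 5, and 0 to 2 were called without any 1 of the others. Without mutant replicate 5, 8.15% of all probe sets were called higher and 12.3% lower, shares of probe sets where the list counts genes. Over all genes, by their brightest probe sets, 901 rose and 1182 fell, and the median difference was -0.01.

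**Figure D5:**
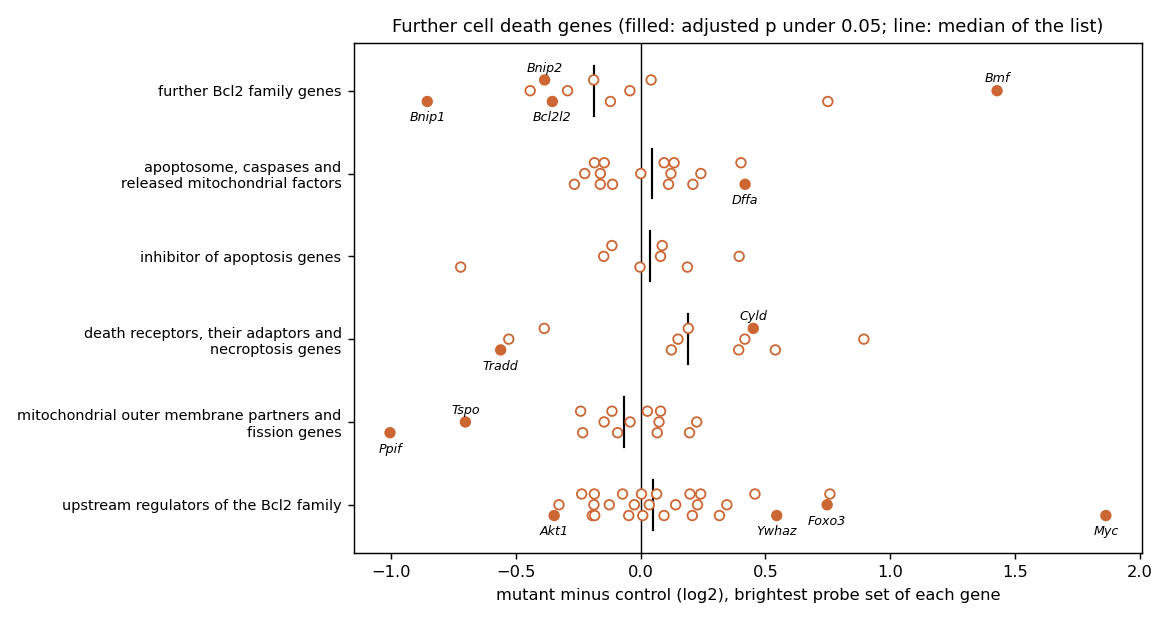
Mutant minus control difference (x axis, log2) of each gene of the 6 further lists, by its brightest probe set, with filled circles for an adjusted p under 0.05 and a vertical line at the median of each list. The list medians run from -0.19 to 0.19, and the largest differences are those of Myc at 1.86, Bmf at 1.43 and Ppif at -1.004.

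The genes whose pattern over the 10 arrays was most like that of Bak1, the member with the smallest p, were Chfr, a mitotic checkpoint ubiquitin ligase (Pearson r = 0.972), Hus1, a subunit of a DNA damage clamp (0.964), and Pdlim5, a cytoskeletal adaptor (0.962). They rose by 0.43, 0.59 and 0.39. These correlations hold the difference between the groups and describe the 10 arrays only.

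Markers of other cells moved with the groups in which Mcl1 and Bak1 rose, where 7.29% of all genes were called higher and 16.8% in either direction. Of 11 Kupffer cell and macrophage markers, 5 rose and 0 fell, and their mean log2 value ran from 8.87 to 9.90 in controls and from 9.86 to 10.42 in mutants. Of 7 stellate cell markers, 4 rose and 0 fell, with means from 9.81 to 10.08 in controls and from 10.32 to 10.83 in mutants. Of 6 endothelial markers, 0 rose and 1, Lyve1, fell (-0.95, adjusted p = 0.0235), with means from 9.12 to 9.55 in controls and from 8.91 to 9.16 in mutants. Of 4 lymphocyte, 4 neutrophil, 4 erythroid, 5 cholangiocyte and 9 proliferation markers, 0 were called by limma, with 1, 1, 0, 1 and 0 at an unadjusted p under 0.05. The part of these cell types in the Bcl2 family differences was not tested. In bulk liver a change in the number of cells of a type and a change of RNA per cell cannot be told apart.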

How the data were processed

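Values were used as the authors deposited them, in 1 table on a log2 scale that was recognised by its range, 0.27 to 16.7. The steps for background, probe summary and normalization are not stated in the labels used here. Per the labels' protocols, total RNA was amplified and labelled with biotin.

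After 37 control probe sets were left out, 25958 were tested in limma 3.58.1 (lmFit, eBayes; R 4.3.3), two-sided, without a block and with Benjamini-Hochberg adjustment over all of them. SE and 95% intervals are moderated. Group and replicate came from sample titles. The p-values set the difference between the groups against the spread of these livers within each group. Symbols came from the platform annotation, and all 22 member symbols matched a RefSeq table through gene identifiers. A gene in a list is its brightest probe set.

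The members and lists were chosen with earlier results of these data known. Named were all members, Dicer1, up to 4 called genes per further list with the smallest p (2 where none was called) and 3 genes most like the member with the smallest p. The floor of 3.60 is the 25th percentile. Alternatives were 9 other settings and 10 fits without 1 array. The number of arrays limits the precision. The same-numbered arrays did not pair, with correlations of their deviations from -0.179 to 0.151.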

Additional observations from a re-analysis of the deposited data

Results flagged for a closer look

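Among 78 groups of 5 arrays, of 39 probe sets named in the text, 6 held an array far from the other 4, where chance alone gives about 1 in 20. Bcl2l1 on 1420888_at stood at 8.45 in mutant replicate 4, against 8.17 to 8.19 in the other mutants. Bad stood at 8.16 in control replicate 5, against 7.74 to 7.81. Bcl2l11 stood at 5.91 in control replicate 5 on 1435448_at, against 6.59 to 6.76, at 4.06 in control replicate 2 on 1456006_at, against 3.31 to 3.47, and at 4.001 in mutant replicate 4 on 1435449_at, against 3.25 to 3.31. Naip2 stood at 6.68 in mutant replicate 4, against 5.64 to 5.93. Mutant replicate 5 was the array in 0 of the 6.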

How the results depend on the processing

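Of 384 differences of single member probe sets under the alternatives, 324 kept direction and side of the threshold, 22 lost a call, 23 gained one and 15 changed sign. The number of probe sets called, 3422 with all arrays, was 3737 with quantile normalization, 3724 with the array median subtracted and 3763 with the 75th percentile subtracted. It was 4092 with dim probe sets left out, from fewer tested, and 3221 with trend and robust options. With array weights, where mutant replicate 5 had the lowest weight, 0.529, it was 4854. It was 2249 with the replicate block and 1546 to 5309 without 1 array. The fits over genes called 2488 by brightest probe set and 2243 by the mean of probe sets. Member probe sets called higher, 4 with all arrays, were 2 with the array median subtracted and 1 with the replicate block. They were 1 and 2 in the fits over genes by brightest probe set and by mean, where each gene counts once. With quantile normalization, the 75th percentile subtracted, dim probe sets left out, trend and robust options or array weights they were 5. Without 1 array they were 2 to 5. Member probe sets called lower were 0 with all arrays and 0 with quantile normalization. They were 2 with the median subtracted (Bid and Bbc3) and 1 with the 75th percentile subtracted (Bid). Dim probe sets left out gave 2 (Bid and Bbc3), trend and robust options 1 (Bid) and array weights 3 (Bid, Bbc3 and Bad). Each fit over genes gave 1 (Bid), the replicate block 1 (Bad) and the fits without 1 array 0 to 3. Member genes called, 1 with all arrays and 1 with quantile normalization, were 3 with the median subtracted and 2 with the 75th percentile subtracted. They were 3 with dim probe sets left out, 2 with trend and robust options and 4 with array weights. In the fits over genes they were 2 by brightest probe set and 3 by mean. With the replicate block they were 2, and without 1 array 1 to 4.

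With the replicate block, where the numbers do not pair the arrays, the Mcl1 calls were lost (adjusted p from 0.0745 to 0.0891) and Bak1 kept its call at 0.0381. The genes called were 2 of the further Bcl2 family, 1 of the mitochondrial membrane list and 2 of the upstream list. By the mean of probe sets 0 death receptor genes and 8 upstream genes were called. Without 1 array the called genes numbered 1 to 4 in the further family, apoptosome, death receptor and mitochondrial lists and 0 to 9 in the upstream list.

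Sign changes were seen among uncalled differences. By the mean of probe sets Bcl2l1 differed by -0.051 and Xiap by -0.035, and with array weights Bcl2l11 on 1456006_at differed by 0.0015. Without 1 array, Bcl2l1 ran from -0.0035 to 0.13 on 1420888_at and from -0.31 to 0.017 on 1420887_a_at, Bcl2l11 from -0.13 to 0.081 on 1456006_at and from -0.029 to 0.16 on 1435449_at, and Bik from -0.25 to 0.23, from -0.054 to 0.19 and from -0.091 to 0.23 on its 3 sets. The causes were not tested. Bak1 is below the median signal and was not tested with dim probe sets left out. Bcl2, and single probe sets of Bid and Bcl2l11, are too dim for a change to be read.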
